A study of Mus musculus with 9 samples.

Results

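Solute carriers are the membrane proteins that move amino acids, sugars, organic acids, nucleosides, metals and ions across the plasma membrane and the membranes of organelles. Their genes were followed here in myeloid cells sorted from wounded mouse paws, as all genes with an Slc family symbol and a mean log2 intensity of at least 6 over the 9 arrays. Of 360 genes with such a symbol on the array, 98 were members and 258 lay under the minimum. A group of 8 genes (Slc2a1, Slc2a3, Slc16a3, Slc7a2, Slc11a1, Slc11a2, Slc35a1 and Slc40a1) was left out by name, of which 4 reached the minimum. The members nearest the minimum were Slc38a10 and Slc41a1, with means of 6.04 each, and the nearest genes below it were Slc4a1ap, with 5.997, and Slc39a11, with 5.91. The symbols Slc9a3r1 (a scaffold protein) and Slc7a6os do not denote transporters, so 2 of the 98 are not carriers. The minimum used the mean over all gates, and 81 members had a mean of at least 6 in every gate.

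The cells were CD11b+ Ly6G- cells from the plantar hindpaw of male C57BL/6J mice, 8 weeks old, taken 24 h after an incision. Flow cytometry divided them into Ly6C low, Ly6C medium and Ly6C high cells, with 3 arrays for each gate, all collected on 1 day. Ly6C is a surface protein that is abundant on classical monocytes newly arrived from the blood and scarce on most resident macrophages and dendritic cells. All gates come from incised paws, with no other treatment or allele named in the labels, so the comparisons are between cell fractions of wounded tissue. RNA was amplified before labelling, and values are RMA-normalised log2 intensities, in which a difference of 1 is a 2-fold change. The labels do not say whether the 3 samples of a gate came from separate or pooled animals, so p-values measure no more than sample-to-sample spread, part or all of which may be technical. The median log2 intensity of an array was 3.93 at the lowest and 4.10 at the highest, and precision is limited by having 3 arrays per gate.

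A macrophage imports glutamine, cystine and aromatic amino acids through the SLC38, SLC7 and SLC16 families, handles lactate and succinate through SLC16 and SLC13 members, and passes metabolites into mitochondria through the SLC25 family. Other members work inside the cell: SLC15, SLC17, SLC29, SLC36 and SLC38 carriers in lysosomes return amino acids, peptides, sialic acid and nucleosides to the cytosol, SLC39 and SLC30 carriers balance zinc, and SLC35 carriers feed nucleotide sugars to the Golgi.

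Between Ly6C low and Ly6C high cells, 5 members were higher in Ly6C low and 10 were lower, at an adjusted p under 0.05 in limma over all 22180 genes. The 15 genes are 15.3% of the members. The background was 5.67% of all genes tested and 13.8% of the 5907 genes that also had a mean of at least 6, so the members' share was close to that of other genes of similar intensity. The split by direction was 5.1% higher and 10.2% lower among members, 7.21% higher and 6.6% lower among genes with a mean of at least 6, and 3.35% higher and 2.32% lower among all genes. At an unadjusted p under 0.05 the share was 28.6% of members, 36.7% of genes with a mean of at least 6 and 17.9% of all genes. The median log2 difference, Ly6C low minus Ly6C high, was 0.01 over the members and 0.01 over all genes, and 49 members had a positive and 49 a negative difference. Of the 15, 5 had a mean under 6 in 1 or more gates and met the minimum through the gates where they were higher. Slc13a3 and Slc29a1 had a mean under 6 in Ly6C high, Slc16a7 in Ly6C medium and Ly6C high, and Slc22a4 and Slc4a11 in Ly6C low. Among genes with a mean of at least 6 in every gate, 10 of 81 members passed (12.3%), beside 12.3% of 5324 genes. Of the 83 members that did not pass, 69 had a 95% interval of the difference that lay within a 2-fold change either way. The 3 arrays of one gate lay wholly above or below those of the other in 31 members, or 31.6%, against 38.5% of genes with a mean of at least 6 and 20.1% of all genes. Between Ly6C low and Ly6C medium cells 5 members passed, and between Ly6C medium and Ly6C high cells none did.

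**Figure D1:**
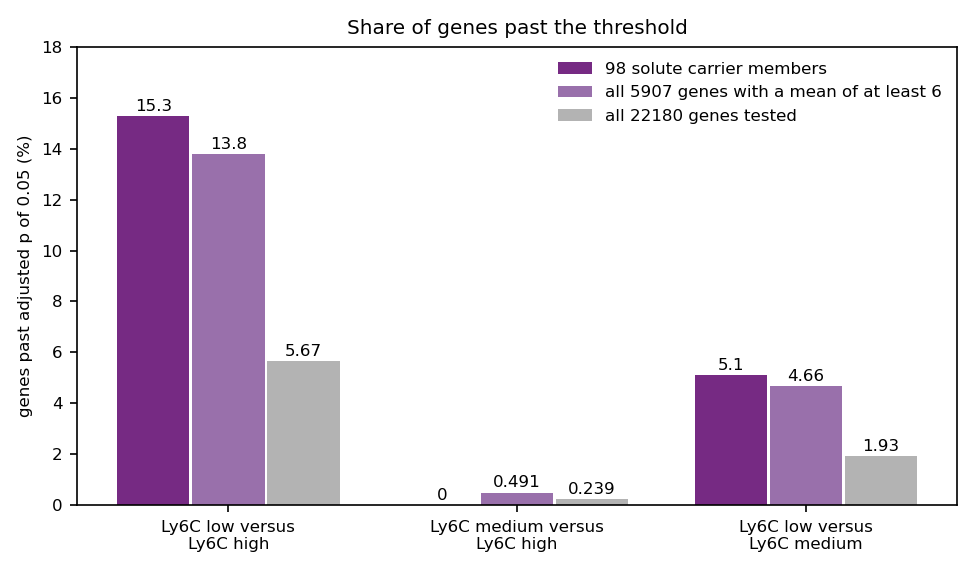
Bars give the percentage of genes past an adjusted p of 0.05 (vertical axis, starting at 0) in each of the 3 gate comparisons, for the 98 solute carrier members, for all 5907 genes with a mean log2 intensity of at least 6 and for all 22180 genes tested. The members stood at 15.3% between Ly6C low and Ly6C high, beside 13.8% of genes of at least the same mean.

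Carriers of organic acids included the member with the largest difference, 1 of the 5 with a gate mean under 6. Slc13a3, the sodium-coupled transporter of succinate and other dicarboxylates, had log2 intensities of 8.33, 7.93 and 8.17 in Ly6C low, 6.42, 6.06 and 5.72 in Ly6C medium, and 5.74, 4.39 and 4.77 in Ly6C high. The Ly6C low arrays were all above both other gates. The gene was 9.06-fold higher in Ly6C low than in Ly6C high (log2 difference 3.18, SE 0.32, limma adjusted p = 0.00122) and 4.23-fold higher than in Ly6C medium (adjusted p = 0.0166). The first call held without any 1 of the 9 arrays, while the second was lost without Ly6C low replicate 1 or 2 or Ly6C medium replicate 2 or 3 (adjusted p between 0.0536 and 0.0697). Slc16a7, the monocarboxylate transporter MCT2 for pyruvate and lactate, measured 6.98, 6.93 and 6.34 in Ly6C low, 5.64, 6.21 and 6.11 in Ly6C medium, and 5.52, 5.79 and 6.01 in Ly6C high. Its Ly6C low arrays lay above the rest by a narrower margin, and the difference was 1.97-fold (log2 0.98, SE 0.22, adjusted p = 0.0341). That call was lost without any 1 of Ly6C low replicates 1 and 2, Ly6C medium replicate 3 and the 3 Ly6C high arrays (adjusted p between 0.0521 and 0.123).

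Slc16a10 moved the other way. This member of the monocarboxylate family carries aromatic amino acids, and it read 8.20, 8.32 and 8.98 in Ly6C low, 9.44, 9.57 and 9.79 in Ly6C medium, and 9.53, 9.47 and 9.75 in Ly6C high. Ly6C medium and Ly6C high overlapped, and Ly6C low lay below both. Its level fell by 1.08 on the log2 scale in Ly6C low against Ly6C high, or 2.11-fold (SE 0.20, adjusted p = 0.0162), and 2.14-fold against Ly6C medium (adjusted p = 0.0316). The call against Ly6C high was lost without Ly6C low replicate 1 or 2 or Ly6C high replicate 3 (adjusted p between 0.0598 and 0.0656), and that against Ly6C medium without 7 of the 9 arrays, all but Ly6C low replicate 3 and Ly6C high replicate 3 (up to 0.121). Slc16a1, the lactate transporter MCT1, had 7.07, 7.35 and 7.00 in Ly6C low, 7.20, 6.90 and 7.37 in Ly6C medium, and 7.63, 7.35 and 7.70 in Ly6C high, and did not pass (log2 difference from Ly6C high -0.42, adjusted p = 0.187).

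The promoters of 6 members are shown because the levels of these genes separated Ly6C low from Ly6C high, 2 upward and 4 downward. They are the members past the threshold for which the RefSeq table lists exactly 1 start site. Each line gives the 250 bases before the RefSeq start site on GRCm38.p6, 5′ to 3′ on the gene's strand: Slc13a3 at chr2:165473198-165473447 (minus), Slc9a9 at chr9:94669642-94669891 (plus), Slc22a4 at chr11:54028105-54028354 (minus), Slc16a10 at chr10:40142255-40142504 (minus), Slc25a20 at chr9:108661886-108662135 (plus) and Slc25a28 at chr19:43674882-43675131 (minus). Capitals mark matches, on either strand, to the E-box CACGTG, the PU.1 core AGGAAGT, the AP-1 motif TGANTCA, the GC box GGGCGG and the CCAAT box.
Slc13a3: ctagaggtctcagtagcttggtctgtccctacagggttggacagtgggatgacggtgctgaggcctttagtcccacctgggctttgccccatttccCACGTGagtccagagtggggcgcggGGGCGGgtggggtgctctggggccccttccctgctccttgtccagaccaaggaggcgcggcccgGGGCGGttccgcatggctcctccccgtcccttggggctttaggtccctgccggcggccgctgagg
Slc9a9: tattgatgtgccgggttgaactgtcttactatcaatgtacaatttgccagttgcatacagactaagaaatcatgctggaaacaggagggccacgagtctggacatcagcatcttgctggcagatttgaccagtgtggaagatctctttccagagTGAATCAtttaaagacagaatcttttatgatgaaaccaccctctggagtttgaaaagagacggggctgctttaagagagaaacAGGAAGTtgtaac
Slc22a4: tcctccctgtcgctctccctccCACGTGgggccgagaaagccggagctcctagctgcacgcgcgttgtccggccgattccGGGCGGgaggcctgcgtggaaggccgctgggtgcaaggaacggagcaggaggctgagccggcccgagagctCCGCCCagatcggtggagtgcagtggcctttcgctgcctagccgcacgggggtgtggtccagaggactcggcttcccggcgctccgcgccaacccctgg
Slc16a10: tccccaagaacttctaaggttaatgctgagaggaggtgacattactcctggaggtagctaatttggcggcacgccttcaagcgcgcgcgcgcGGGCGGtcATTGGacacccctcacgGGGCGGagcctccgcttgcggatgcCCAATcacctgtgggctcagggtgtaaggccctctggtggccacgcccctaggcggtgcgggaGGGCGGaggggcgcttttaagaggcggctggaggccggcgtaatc
Slc25a20: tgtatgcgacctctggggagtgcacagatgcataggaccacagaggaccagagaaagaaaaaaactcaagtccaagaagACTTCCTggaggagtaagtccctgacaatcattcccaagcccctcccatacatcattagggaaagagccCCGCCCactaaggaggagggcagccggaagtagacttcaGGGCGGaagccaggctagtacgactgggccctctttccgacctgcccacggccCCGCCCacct
Slc25a28: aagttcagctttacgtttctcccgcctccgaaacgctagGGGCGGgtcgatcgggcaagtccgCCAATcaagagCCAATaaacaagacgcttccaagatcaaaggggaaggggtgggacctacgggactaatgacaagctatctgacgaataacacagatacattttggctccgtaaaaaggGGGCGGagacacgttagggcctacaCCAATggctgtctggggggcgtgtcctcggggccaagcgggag
The Slc13a3 promoter held an E-box at positions -154 to -149 and the Slc22a4 promoter one at -228 to -223, and each held 2 GC boxes. The Slc9a9 promoter, with 42.8% G and C the least GC-rich of the 6, held the PU.1 core at -13 to -7 and the AP-1 motif at -96 to -90. Slc16a10 had 3 GC boxes and 2 CCAAT boxes, and Slc25a28 had 2 GC boxes and 3 CCAAT boxes. Slc25a20 had the PU.1 core, on the opposite strand, at -171 to -165, and 3 GC boxes. RefSeq promoters were found for 79 of the 98 members, 105 promoters in all, and 13.3% of these held the E-box against 6.02% of all 32851 mouse promoters. The GC box was in 64.8% of member promoters and 32.7% of all, the CCAAT box in 29.5% and 33.8%, the PU.1 core in 9.52% and 7.69%, and the AP-1 motif in 6.67% and 6.75%. The core of the interferon-stimulated response element, a pair of GAAA repeats with any 2 bases between them, was in 0% of member promoters and 2.98% of all. A match is a description of the letters and not a binding site, the motifs do not overlap one another in these 6 sequences, and no test was made of these shares. The shares over all promoters were not limited to genes with a mean of at least 6, as the members were. Some members entered with more than 1 promoter. The shares therefore do not show a trait particular to solute carriers.

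**Figure D2:**
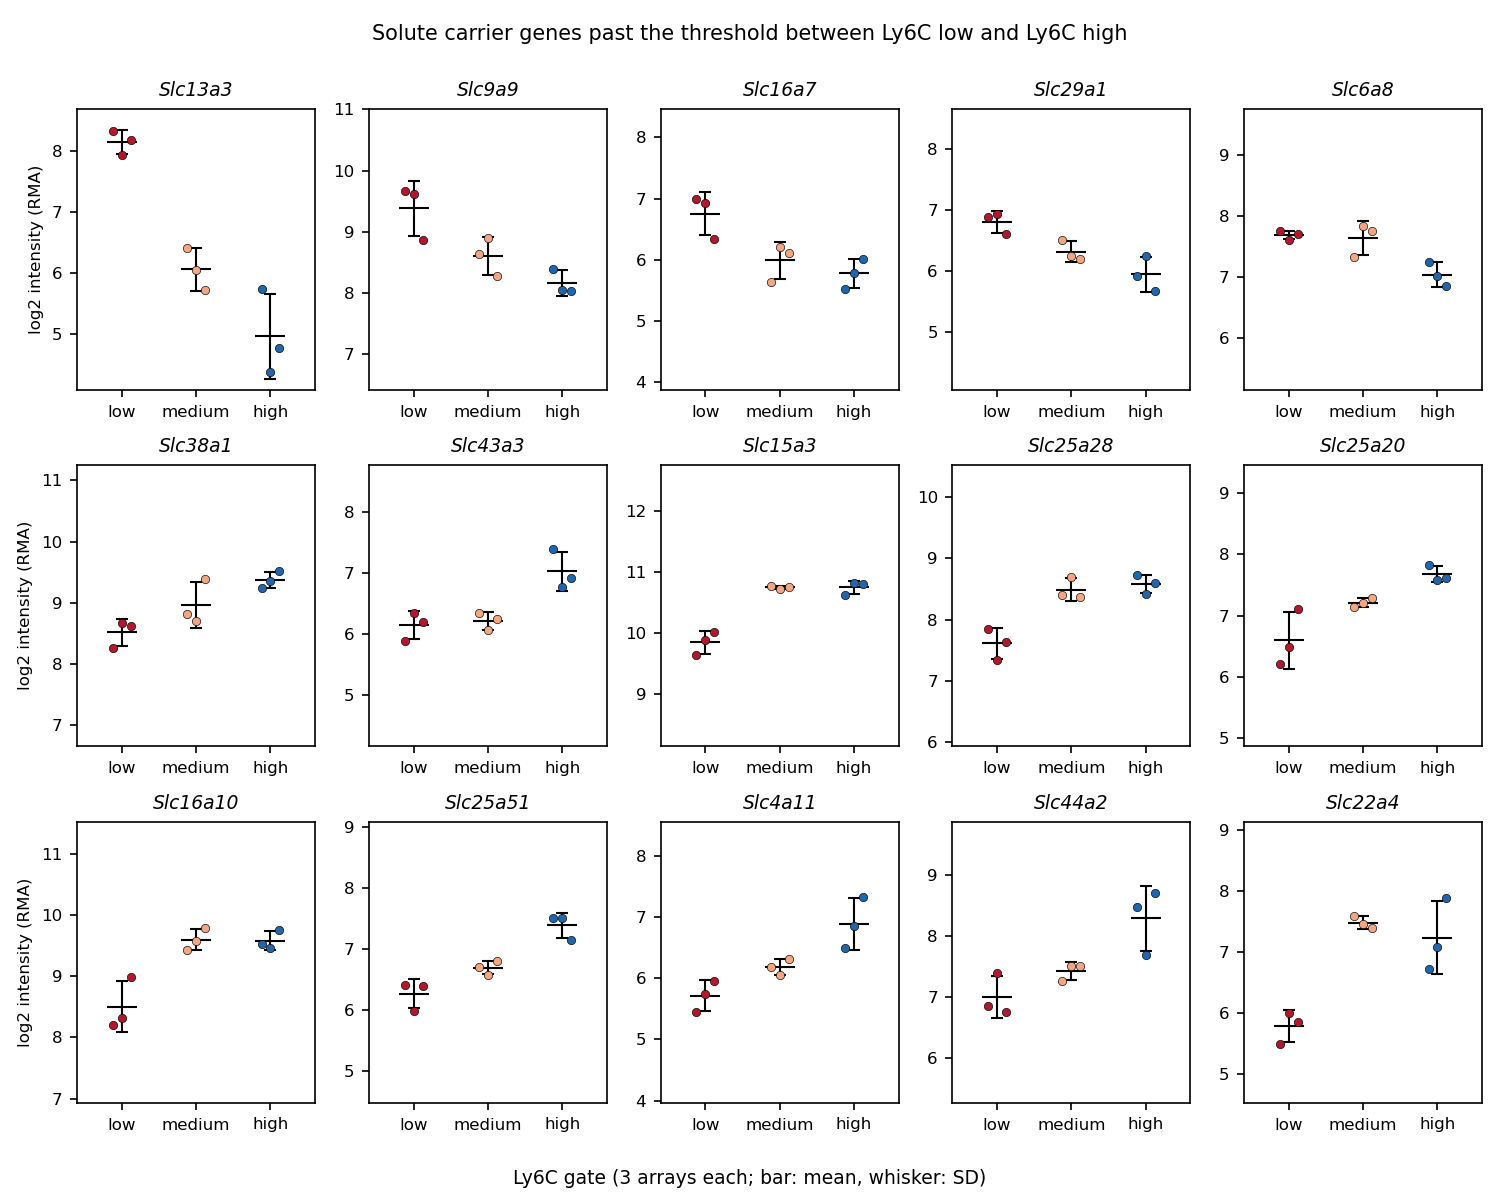
Each panel shows 1 of the 15 members past the threshold between Ly6C low and Ly6C high, with the log2 intensity of each array on the vertical axis, the 3 gates on the horizontal axis, the mean as a bar and the SD as a whisker (3 arrays per gate). Slc13a3, at the top left, lies between 7.93 and 8.33 on the Ly6C low arrays and between 4.39 and 5.74 on the Ly6C high arrays.

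Of the 18 mitochondrial carriers, 3 were lower in Ly6C low (16.7%) and none was higher. Among genes with a mean of at least 6, 6.6% were lower and 7.21% higher, and among all genes 2.32% and 3.35%. The class share rests on 3 genes and was not tested. Slc25a51, which brings NAD+ into mitochondria, had 6.42, 5.99 and 6.39 in Ly6C low, 6.71, 6.58 and 6.81 in Ly6C medium, and 7.51, 7.51 and 7.15 in Ly6C high. The 3 gates did not overlap, and Ly6C low was 2.17-fold lower than Ly6C high (log2 difference -1.12, SE 0.15, adjusted p = 0.00389). Slc25a28, or mitoferrin 2, imports iron, and read 7.85, 7.34 and 7.64 in Ly6C low, 8.41, 8.70 and 8.37 in Ly6C medium, and 8.72, 8.43 and 8.59 in Ly6C high. Ly6C low alone stood apart, 1.96-fold below Ly6C high (log2 -0.97, SE 0.16, adjusted p = 0.00867) and 1.84-fold below Ly6C medium (adjusted p = 0.0277). The Slc25a51 call and the Slc25a28 call against Ly6C high held without any 1 array. The Slc25a28 call against Ly6C medium was lost without Ly6C low replicate 2 or 3 or any Ly6C medium array (adjusted p between 0.0511 and 0.0875).

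Slc25a20 exchanges carnitine for acylcarnitines so that fatty acids can be oxidised. It had 6.20, 6.48 and 7.11 in Ly6C low, 7.14, 7.20 and 7.29 in Ly6C medium, and 7.83, 7.58 and 7.62 in Ly6C high, an order with no overlap between neighbouring gates. Ly6C low was 2.11-fold below Ly6C high (log2 -1.08, SE 0.20, adjusted p = 0.0178). The call failed without Ly6C low replicate 1 or 2 or Ly6C high replicate 1 or 3 (adjusted p between 0.0503 and 0.0702). The other 15 carriers of the class did not pass, and the class had a median difference of 0.06. The ADP/ATP carrier Slc25a5 was flat at 10.60, 10.46 and 10.48 in Ly6C low, 10.35, 10.40 and 10.16 in Ly6C medium, and 10.54, 10.30 and 10.38 in Ly6C high (difference from Ly6C high 0.10, 95% interval -0.14 to 0.35). The citrate carrier Slc25a1 differed by 0.39 (adjusted p = 0.386), and mitoferrin 1, Slc25a37, by -0.33 (adjusted p = 0.641). Of members named after their values were seen, Slc25a3, Slc25a46 and the zinc exporter Slc30a5 were listed with 1 value on all 3 Ly6C medium arrays, as were 330 of all genes, and Slc25a44 with 1 value on all 3 Ly6C high arrays, as were 319 of all genes. Their spread within those gates reads as 0. Identical values also recurred across gates, in called members too, and how often was not counted. Slc29a1 had 6.23992 on Ly6C medium replicate 2 and Ly6C high replicate 2. Slc43a3 had 6.34731 on Ly6C low replicate 2 and Ly6C medium replicate 1.

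Among the 22 carriers of amino acids and peptides, 1 was higher and 2 were lower in Ly6C low than in Ly6C high. Together these are 13.6%, close to the 13.8% of genes with a mean of at least 6 (5.67% of all genes). Slc15a3, a transporter of histidine and small peptides in the lysosomal membrane, had 9.65, 9.89 and 10.02 in Ly6C low, 10.78, 10.72 and 10.75 in Ly6C medium, and 10.62, 10.83 and 10.80 in Ly6C high. Ly6C medium and Ly6C high overlapped, and Ly6C low was 1.86-fold below Ly6C high (log2 -0.90, SE 0.12, adjusted p = 0.00314) and 1.86-fold below Ly6C medium (adjusted p = 0.00888). Both calls held without any 1 array, the highest adjusted p being 0.0153 and 0.041. Slc38a1, a glutamine transporter of the plasma membrane, had 8.26, 8.67 and 8.62 in Ly6C low, 8.82, 8.69 and 9.39 in Ly6C medium, and 9.25, 9.36 and 9.51 in Ly6C high. Its Ly6C medium arrays ran from just above Ly6C low into the range of Ly6C high, and Ly6C low was 1.81-fold below Ly6C high (log2 -0.86, SE 0.19, adjusted p = 0.0345). The creatine transporter Slc6a8 measured 7.76, 7.62 and 7.70 in Ly6C low, 7.33, 7.84 and 7.76 in Ly6C medium, and 7.25, 7.02 and 6.86 in Ly6C high. Ly6C low and Ly6C medium overlapped here, and Ly6C low was 1.57-fold above Ly6C high (log2 0.65, SE 0.15, adjusted p = 0.0446). The Slc38a1 call held only without Ly6C medium replicate 2 or 3, and was otherwise lost (up to 0.121), and the Slc6a8 call held only without Ly6C medium replicate 1 or Ly6C high replicate 1 (otherwise up to 0.139).

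The other 19 members of that class did not pass, and several were tightly measured. Slc3a2, the shared heavy chain of the SLC7 exchangers, read 11.10, 11.19 and 11.00 in Ly6C low, 11.02, 10.96 and 11.05 in Ly6C medium, and 10.93, 11.18 and 11.05 in Ly6C high. The 95% interval of its difference between Ly6C low and Ly6C high ran from -0.18 to 0.27. The neutral amino acid transporter Slc38a2 differed by 0.06 (interval -0.19 to 0.31) and the taurine transporter Slc6a6 by 0.08 (interval -0.13 to 0.30). Slc7a11, the light chain of the cystine and glutamate exchanger, had 10.27, 10.66 and 10.99 in Ly6C low, 11.14, 10.88 and 11.50 in Ly6C medium, and 10.99, 11.07 and 11.52 in Ly6C high. Ly6C low reached into the range of Ly6C medium, and its replicate 3 equalled the lowest Ly6C high value. The difference from Ly6C high, -0.56, did not pass (adjusted p = 0.236). Light chains of the large neutral amino acid exchangers did not pass either: Slc7a5 differed by -0.01 (interval -0.59 to 0.57), and Slc7a8 by -0.12. Slc7a8 was highest in Ly6C medium, with 10.02, 10.50 and 10.52 in Ly6C low, 10.90, 10.79 and 11.15 in Ly6C medium, and 10.43, 10.43 and 10.55 in Ly6C high, and its difference between Ly6C low and Ly6C medium, -0.60, missed the threshold (adjusted p = 0.0985). The glutamine transporter Slc1a5 differed by -0.48 (adjusted p = 0.35), the cationic amino acid exchanger light chain Slc7a7 by 0.37 (adjusted p = 0.216) and Slc43a2 by -0.35 (adjusted p = 0.427). Second probe sets of Slc1a5 (mean 7.46) and Slc7a11 (mean 10.61) differed more from Ly6C high, by -0.74 and -0.68. Neither gene passed on the mean of its probe sets.

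Slc22a4, the organic cation transporter OCTN1 that carries ergothioneine, was the member with the largest fall in Ly6C low. It had 5.50, 6.00 and 5.86 in Ly6C low, 7.59, 7.47 and 7.39 in Ly6C medium, and 6.73, 7.08 and 7.89 in Ly6C high. The Ly6C medium arrays lay inside the wide range of Ly6C high, and all 6 were above Ly6C low, which was 2.73-fold below Ly6C high (log2 -1.45, SE 0.26, adjusted p = 0.0153) and 3.24-fold below Ly6C medium (log2 -1.70, adjusted p = 0.0179). The call against Ly6C high was lost without Ly6C low replicate 1 (adjusted p = 0.063), and the call against Ly6C medium without Ly6C low replicate 1 or 2 or any Ly6C medium array (between 0.054 and 0.0731). None of the other 5 members of the class of lipids, bile acids and organic ions passed. These included the fatty acid transporter Slc27a1, at a difference of 0.54 from Ly6C high (adjusted p = 0.312).

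Slc44a2, a choline transporter-like protein, had 6.85, 7.39 and 6.76 in Ly6C low, 7.26, 7.50 and 7.51 in Ly6C medium, and 8.47, 7.69 and 8.70 in Ly6C high. Ly6C high lay above the other gates, which overlapped, and Ly6C low was 2.44-fold below it (log2 -1.29, SE 0.26, adjusted p = 0.0235). That call was lost without Ly6C low replicate 1 or 3 or Ly6C high replicate 1 or 3 (adjusted p between 0.0637 and 0.0891). Its relative Slc44a1 differed by 0.33 (adjusted p = 0.388) and did not pass, nor did any other of the 4 members for vitamins, choline and cofactors.

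Of the 11 carriers of inorganic ions, 1 was higher and 1 lower in Ly6C low than in Ly6C high. Together these are 18.2%, beside 13.8% of genes with a mean of at least 6 and 5.67% of all genes. Slc9a9, a sodium and proton exchanger of endosomes, had 9.66, 9.61 and 8.87 in Ly6C low, 8.63, 8.90 and 8.27 in Ly6C medium, and 8.40, 8.05 and 8.03 in Ly6C high. Ly6C low and Ly6C medium overlapped, through Ly6C low replicate 3, and Ly6C low was 2.33-fold above Ly6C high (log2 1.22, SE 0.24, adjusted p = 0.0197). Slc4a11, an ion transporter of the bicarbonate carrier family, had 5.44, 5.75 and 5.95 in Ly6C low, 6.18, 6.05 and 6.31 in Ly6C medium, and 6.49, 6.85 and 7.33 in Ly6C high. Its 3 gates did not overlap, and Ly6C low was 2.26-fold below Ly6C high (log2 -1.17, SE 0.21, adjusted p = 0.0148). The Slc9a9 call was lost without Ly6C low replicate 1 or 2 or Ly6C high replicate 2 or 3 (adjusted p between 0.0682 and 0.0773), and the Slc4a11 call without Ly6C low replicate 1 or 2 (0.0598 and 0.0519). The phosphate importer Slc20a1 differed by 0.35 (adjusted p = 0.161), and the mitochondrial sodium and calcium exchanger Slc8b1 by -0.27 (adjusted p = 0.634).

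The 3 members for nucleosides and nucleobases had 1 gene in each direction between Ly6C low and Ly6C high. That is 66.7% of only 3 genes, beside 13.8% of genes with a mean of at least 6 and 5.67% of all genes. Slc29a1, the equilibrative nucleoside transporter of the plasma membrane, had 6.88, 6.94 and 6.60 in Ly6C low, 6.51, 6.24 and 6.20 in Ly6C medium, and 5.92, 6.24 and 5.67 in Ly6C high. Ly6C low lay above both other gates, and was 1.82-fold above Ly6C high (log2 0.86, SE 0.17, adjusted p = 0.0191). The gene's second probe set was dim and differed by 0.06, and the mean of both did not pass. Slc43a3, a purine nucleobase transporter, had 5.89, 6.35 and 6.19 in Ly6C low, 6.35, 6.06 and 6.25 in Ly6C medium, and 7.39, 6.78 and 6.92 in Ly6C high. Ly6C low and Ly6C medium overlapped fully, and Ly6C low was 1.84-fold below Ly6C high (log2 -0.88, SE 0.18, adjusted p = 0.0238). The Slc29a1 call was lost without Ly6C low replicate 1 or 2 or Ly6C high replicate 1 or 3 (adjusted p between 0.0528 and 0.0747), and the Slc43a3 call without Ly6C low replicate 1 or Ly6C high replicate 3 (0.0866 and 0.054).

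**Figure D3:**
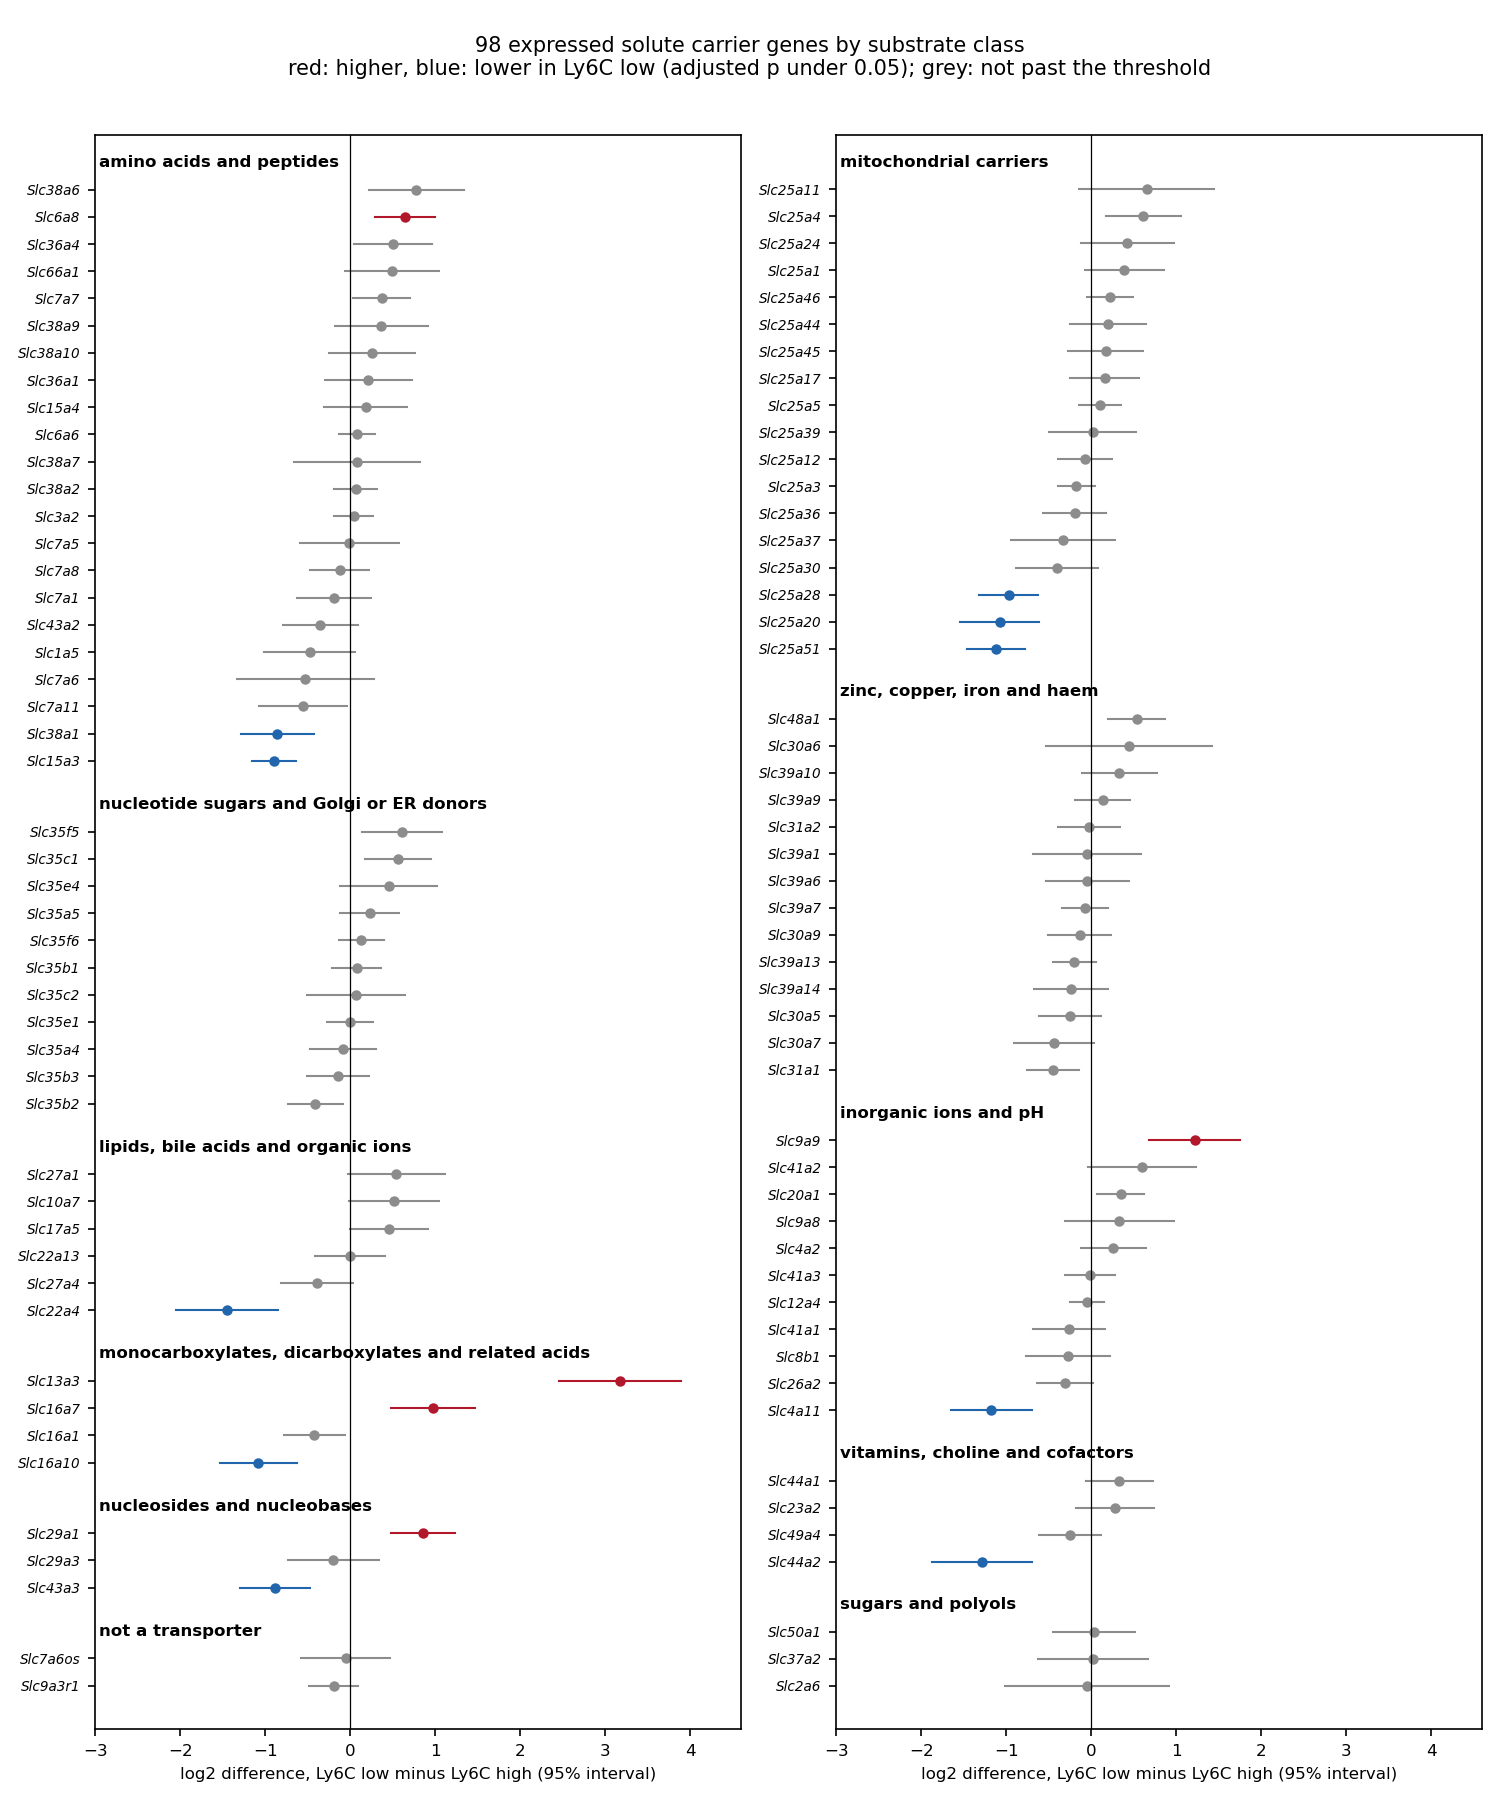
Each point is the log2 difference of 1 member, Ly6C low minus Ly6C high (horizontal axis), with its 95% interval, and the 98 members are grouped by what they carry (vertical axis). Red marks the 5 members higher and blue the 10 members lower in Ly6C low at an adjusted p under 0.05, and 71 members differ by less than 0.5.

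Carriers of metals, nucleotide sugars and sugars gave no call between any gates in limma. Between Ly6C low and Ly6C high, 13.8% of genes with a mean of at least 6 and 5.67% of all genes passed. Of the 14 members for zinc, copper, iron and haem, 1 was higher and 1 lower between Ly6C low and Ly6C high at an unadjusted p under 0.05, and the class median difference was -0.06. Slc48a1, which exports haem from the phagosome and lysosome after red cells are digested, had 10.11, 10.29 and 10.37 in Ly6C low, 9.52, 9.54 and 9.95 in Ly6C medium, and 9.54, 9.77 and 9.87 in Ly6C high. All 3 Ly6C low arrays lay above the other 6, by 0.53 over Ly6C high (95% interval 0.20 to 0.87), and the adjusted p of 0.0772 missed the threshold. The copper importer Slc31a1 ran the other way, with 9.17, 9.07 and 8.90 in Ly6C low, 9.57, 9.41 and 9.55 in Ly6C medium, and 9.35, 9.35 and 9.78 in Ly6C high. Its Ly6C low arrays lay below the rest, by -0.45 against Ly6C high (interval -0.76 to -0.14, adjusted p = 0.106). The zinc importer Slc39a14 differed by -0.23 (adjusted p = 0.645).

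Of the 11 members for nucleotide sugars and other Golgi or ER donors, 2 were higher and 1 was lower in Ly6C low than in Ly6C high at an unadjusted p under 0.05. Slc35b1, an ER carrier of ATP, differed by 0.08 (adjusted p = 0.852). None of the 3 members for sugars passed at an unadjusted p under 0.05 in either direction. The sugar phosphate carrier Slc37a2 differed by 0.02, with an interval from -0.62 to 0.66, and Slc2a6, a glucose transporter family member of intracellular membranes, had its lowest and highest values among Ly6C high arrays (6.43, 5.51 and 7.49).

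Lysosomal transporters were followed as a list of 12 genes, 10 of them members, and the calls went in both directions. The list mean, in log2, was 7.54 to 7.62 in Ly6C low, 7.27 to 7.48 in Ly6C medium and 7.35 to 7.50 in Ly6C high. The summed linear intensity, which weighs bright genes more, was not highest in Ly6C low. It was 3740 to 4450 in Ly6C low, 4040 to 4720 in Ly6C medium and 4170 to 4690 in Ly6C high. The median difference, Ly6C low minus Ly6C high, was 0.23, beside 0.01 over all genes. Between Ly6C low and Ly6C high 16.7% passed, beside 5.67% of all genes and 13.8% of genes with a mean of at least 6. In Ly6C low against Ly6C high 1 was higher and 1 was lower. The higher one, Slc46a3, had 6.33, 6.38 and 6.27 in Ly6C low, 5.73, 5.33 and 5.28 in Ly6C medium, and 5.48, 5.95 and 5.40 in Ly6C high (log2 difference from Ly6C high 0.71, adjusted p = 0.0425, and from Ly6C medium 0.88, adjusted p = 0.038). Its mean of 5.80 kept it from being a member. The lower one was Slc15a3, described above, while its relative Slc15a4 had 8.64, 8.23 and 8.24 in Ly6C low, 8.25, 8.24 and 7.71 in Ly6C medium, and 8.52, 8.23 and 7.81 in Ly6C high and did not pass (difference from Ly6C high 0.18, adjusted p = 0.78). Slc66a1 and Slc38a9, which handle cationic amino acids and arginine sensing in the lysosome, differed by 0.49 and 0.37 and did not pass, and the sialic acid exporter Slc17a5 by 0.46. Slc17a9, which loads nucleotides into secretory vesicles and lysosomes, had a mean of 4.19 and differed by 0.25 (adjusted p = 0.416). Slc36a1 differed by 0.22, Slc38a7 by 0.08, the lysosomal nucleoside transporter Slc29a3 by -0.20 and Slc49a4 by -0.25, with overlapping gates in each.

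**Figure D4:**
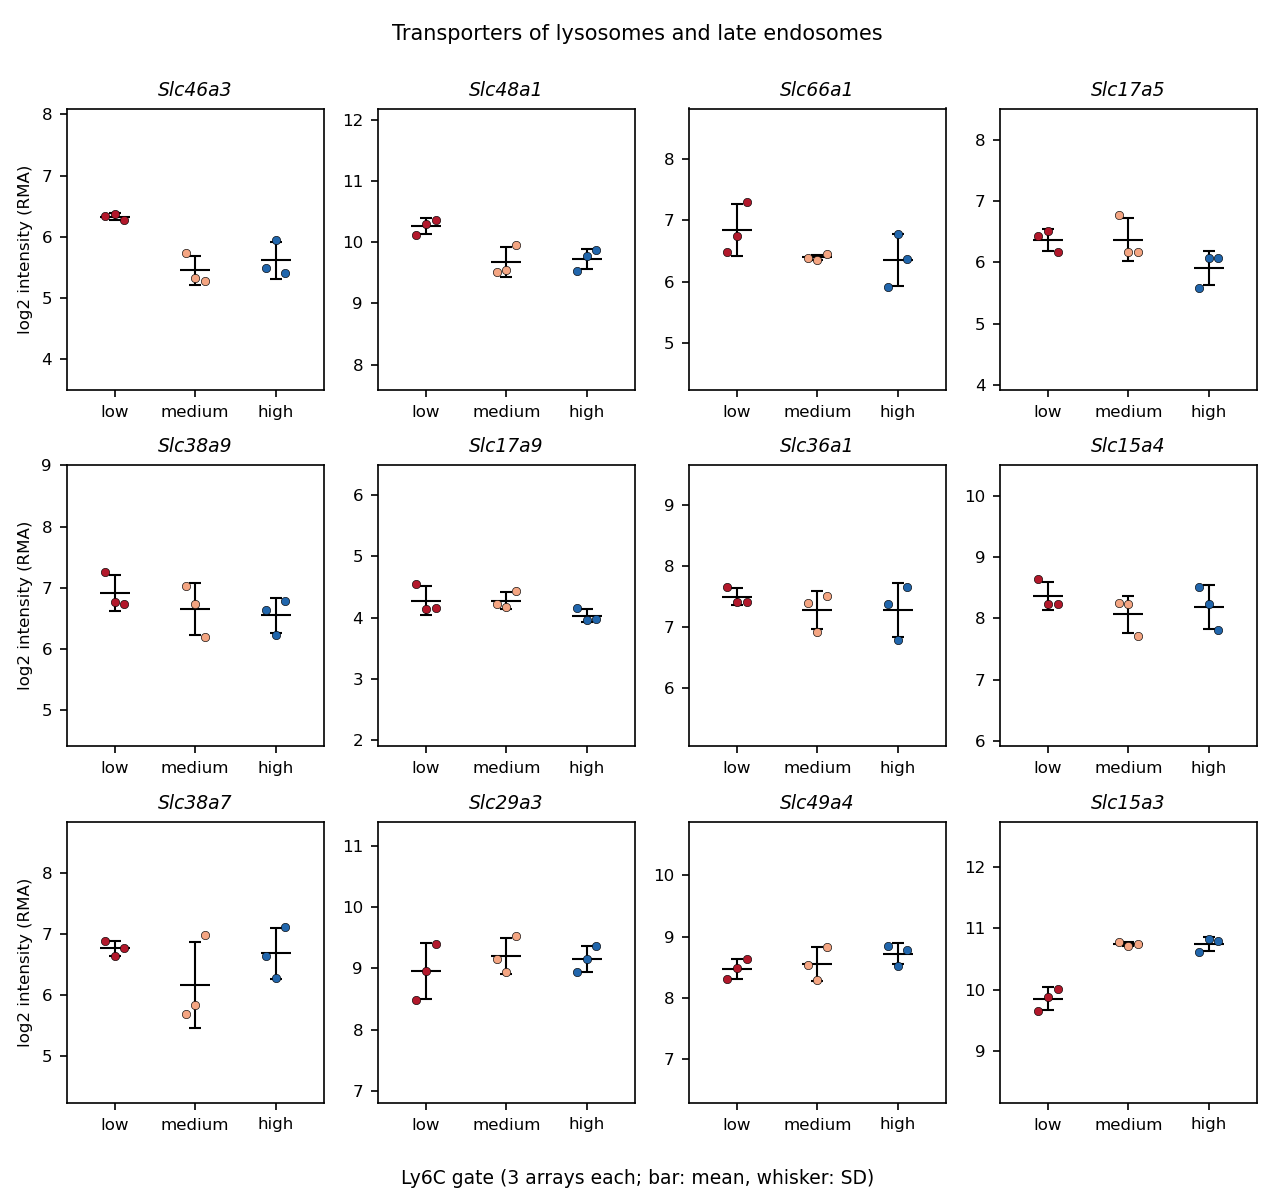
Each panel shows 1 of the 12 transporters of lysosomes and late endosomes, with log2 intensity by array on the vertical axis, the 3 gates on the horizontal axis, the mean as a bar and the SD as a whisker (3 arrays per gate). Slc46a3, at the top left, was higher and Slc15a3, at the bottom right, was lower in Ly6C low than in both other gates.

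Ly6C medium cells were set against each neighbour with the same arrays, so the 3 comparisons are not independent. Against Ly6C low, 5 members passed (5.1%, beside 1.93% of all genes and 4.66% of genes with a mean of at least 6). Slc13a3 was higher in Ly6C low, and Slc22a4, Slc16a10, Slc15a3 and Slc25a28 were lower, and all 5 were also called against Ly6C high. That is 1.02% of members higher and 4.08% lower, beside 1.38% and 0.541% of all genes and 2.96% and 1.69% of genes with a mean of at least 6. Slc13a3 and Slc22a4 had a mean under 6 in 1 gate, Ly6C high and Ly6C low. They met the minimum through the gates where they were higher. The share among genes with a mean of at least 6 in every gate was not counted for this comparison. At an unadjusted p under 0.05 the share was 28.6% of members, 14.1% of all genes and 28.6% of genes with a mean of at least 6. Ly6C low and Ly6C medium did not overlap in 30.6% of members, 16.8% of all genes and 31.5% of genes with a mean of at least 6, and the median difference was 0.13 over members and -0.02 over all genes. Ly6C medium against Ly6C high gave 0 members past the threshold in limma (0.239% of all genes and 0.491% of genes with a mean of at least 6 passed), with 20 members, or 20.4%, at an unadjusted p under 0.05, beside 7.53% of all genes and 12.9% of genes with a mean of at least 6. These gates did not overlap in 18.4% of members, 10.7% of all genes and 15.4% of genes with a mean of at least 6. The lowest adjusted p was 0.2, for Slc25a51, and the point estimate for Slc13a3 was 1.10 (adjusted p = 0.401). Of the 15 members called between Ly6C low and Ly6C high, the Ly6C medium mean lay between the other means in 12 and was nearer to Ly6C high in 10. These 15 were picked by the gap between the outer gates, and the same shares over all called genes were not counted. The counts therefore show no trait particular to solute carriers.

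Transporters that carry another kind of name were also followed. Of 41 measured, 3 were higher in Ly6C low than in Ly6C high and 1 was lower, together 9.76%, between the 5.67% of all genes and the 13.8% of genes with a mean of at least 6. The organic anion transporter Slco2b1 had 7.63, 7.22 and 7.10 in Ly6C low, 5.90, 5.94 and 5.37 in Ly6C medium, and 5.32, 5.37 and 5.12 in Ly6C high (log2 difference from Ly6C high 2.05, adjusted p = 0.000846). The mitochondrial serine carrier Sfxn3 was higher by 0.59 (adjusted p = 0.0247) and Tmem104 by 1.06 (adjusted p = 0.0115), and the prostaglandin transporter Slco2a1 was lower by 1.62 on the log2 scale (difference -1.62, adjusted p = 0.0309). Of 31 partners and regulators of solute carriers, 2 were higher and 1 was lower, together 9.68%, again between those shares. The mTORC1 regulators Sesn1 and Lamtor1 were higher by 1.88 (adjusted p = 0.000902) and 1.05 (adjusted p = 0.0115), and embigin (Emb), a partner of the SLC16 lactate transporters, was lower (difference -0.70, adjusted p = 0.0144). Basigin (Bsg), the other such partner, differed by -0.03.

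The gates also differed in markers of several cell types, and in sorted bulk RNA fewer cells of a type and less RNA per cell cannot be told apart. Of 13 tissue macrophage markers, 12 were higher in Ly6C low than in Ly6C high, with a summed linear intensity of 16500 to 19900 in Ly6C low, 7240 to 9980 in Ly6C medium and 4430 to 6950 in Ly6C high. Dendritic cell markers were higher for 5 of 11 (sums of 2220 to 2960 in Ly6C low, 484 to 578 in Ly6C medium and 352 to 495 in Ly6C high). Classical monocyte markers were lower for 7 of 8 (4280 to 6950, 11000 to 12500 and 15700 to 17100 in the same gates), among them Ly6c2, which encodes the sorting marker. Fibroblast markers, which the sort should remove, were lower in Ly6C low for 10 of 11, with sums of 443 to 490 in Ly6C low, 807 to 821 in Ly6C medium and 3180 to 7150 in Ly6C high. For each of those 10 the Ly6C medium mean was nearer to Ly6C low, and among the 10 members lower in Ly6C low the same held for 4: Slc25a51, Slc43a3, Slc44a2 and Slc4a11. It also held for 1 of the 5 members higher in Ly6C low, Slc6a8. Among called markers it held for 0 of 7 of classical monocytes, 2 of 12 of tissue macrophages and 0 of 5 of dendritic cells. For eosinophils and for neutrophils it held for 1 of 3 each, and for endothelial, keratinocyte and mast cell markers for 0 of 1 each. The share over all genes was not counted. Endothelial markers were lower for 1 of 10 (223 to 336, 275 to 283 and 356 to 532), eosinophil markers higher for 3 of 8, and mast cell and keratinocyte markers higher for 1 of 8 and 1 of 7. Markers of T and NK cells, B cells, muscle, erythroid and Schwann cells had no call (0 of 7, 4, 6, 2 and 2 in limma, of which 1 muscle marker was lower and 1 erythroid marker higher at an unadjusted p under 0.05). Neutrophil markers were higher for 1 and lower for 2 of 11, and their sums varied within gates, with 650.2, 1023 and 2829 in Ly6C low, 987, 1226 and 2333 in Ly6C medium, and 738, 1060 and 1256 in Ly6C high. Replicate 3 had the highest neutrophil sum and the highest classical monocyte sum of every gate, and without Ly6C low replicate 3 the call count between Ly6C low and Ly6C high was 13, of which 12 were among the 15. An array has no zero level, and the part of these cell types in the transporter differences was not tested.

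**Figure D5:**
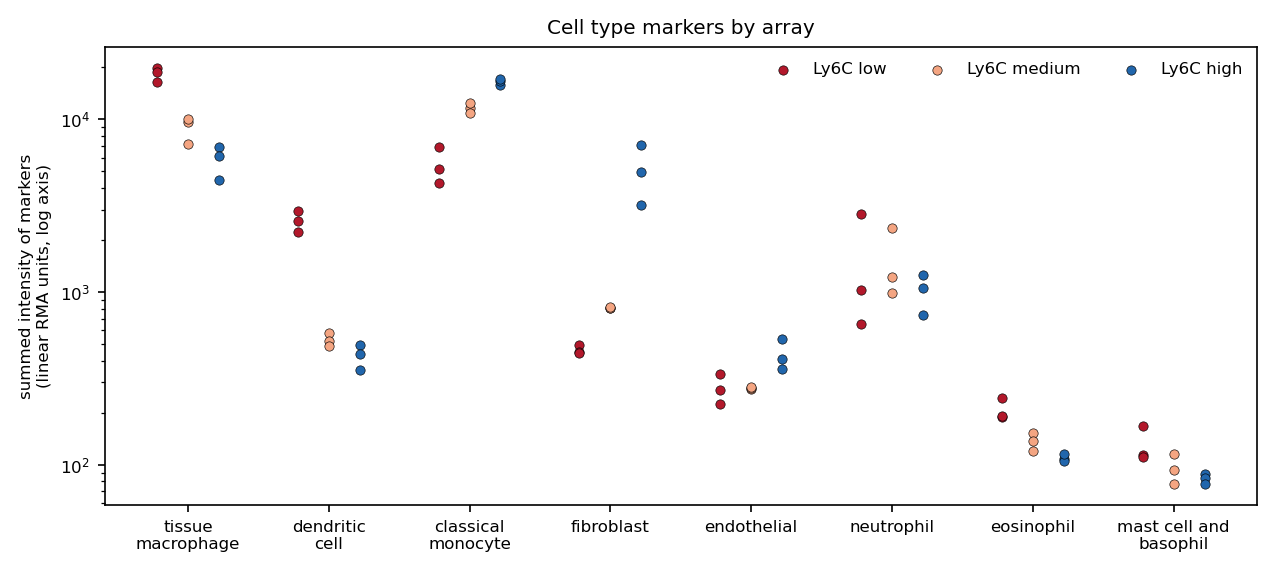
Summed linear intensity of the markers of each cell type (vertical log axis) on each array, with 3 arrays for each gate. Tissue macrophage and dendritic cell sums are highest in Ly6C low, classical monocyte and fibroblast sums are highest in Ly6C high, and the fibroblast sum on Ly6C medium arrays, 807 to 821, is nearer to Ly6C low.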

How the data were processed

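Array intensities were background-corrected, normalised and summarised to log2 values with RMA by the authors, per the submitters' processing notes, and the deposited log2 table was used as given. The RMA version, its settings and the genome build are not given in the sources used here. Of 41345 probe sets, 23521 had 1 gene symbol in the platform annotation, 1814 had several and 16010 were not listed there. The probe set with the highest mean stood for each symbol, which left 22180 genes. All 9 arrays entered 1 limma fit (lmFit and eBayes, limma 3.58.1, R 4.3.3) with 3 contrasts between gates, and p-values were adjusted over all genes by Benjamini-Hochberg within each contrast. A gene passed at an adjusted p under 0.05. Intervals are unadjusted 95% intervals from that fit. The scripts were tested on simulated data. Members, substrate classes, lists and tests were chosen with earlier results of these data known. Named genes were the members past the threshold without overlap (up to 12 per direction and comparison), per class up to 3 such members and the one with the highest mean, all lysosomal list genes, those next to the minimum and a set of 42 well-studied carriers, of which 33 were members, 6 had a lower mean and 3 are not analysed here. Promoter sequences are RefSeq's, GRCm38.p6. Alternatives were another normalisation, centring, probe set averaging, a filter on dim genes, another prior, fewer arrays, a replicate block and a 2-fold threshold.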

Additional observations from a re-analysis of the deposited data

How the results depend on the processing

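With 3 arrays per gate, small differences were not resolved, and no result reversed under any alternative. Against Ly6C high, 5 members were higher and 10 lower in Ly6C low. Centring each array on its median gave 3 higher and 10 lower, fitting only the 2 gates compared gave 1 and 4, and adding a 2-fold threshold gave 2 and 6. Leaving out 1 array gave 1 to 5 higher and 3 to 10 lower. The total of 15 fell to 4 without Ly6C low replicate 1, 7 without Ly6C low replicate 2 and 6 without Ly6C high replicate 3, and to 10 without Ly6C high replicate 1. Slc13a3, Slc15a3, Slc25a28 and Slc25a51 passed with each array left out in turn. Slc48a1 passed after repeated quantile normalisation, a filter on dim genes, the replicate block or without Ly6C medium replicate 3. Against Ly6C medium, 1 member was higher and 4 lower. The number higher was 2 with a filter on dim genes, 2 with the replicate block and 4 when only genes with a mean of at least 6 were adjusted, a choice made after seeing the data. The number lower was 2 with only those gates and 2 with a 2-fold threshold, and leaving out 1 array gave 0 to 2 higher and 1 to 4 lower. Ly6C medium against Ly6C high gave 0 members in every alternative. Same-numbered samples had correlations of their deviations between -0.02 and 0.31 and were not all above 0.1, so the numbers were not taken to pair the samples. Each Ly6C low array did correlate best with the same-numbered Ly6C medium array, and the replicate 3 arrays with each other, which is a hint from the data and not from the design. With the replicate block 15 members passed between Ly6C low and Ly6C high, 14 of them shared with the fit without it. Slc6a8 was lost and Slc48a1 gained.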

Other observations

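Several solute carrier genes outside the 98 members also passed between Ly6C low and Ly6C high. Of 254 genes under the minimum, 8 were higher in Ly6C low (3.15%, beside 3.35% of all genes) and none was lower (beside 2.32% of all genes). The shares over all genes include brighter genes, which passed more often. Of genes with a mean of at least 6, 7.21% were higher and 6.6% lower. The share among all genes under the minimum was not counted, so these 254 genes have no like background here. Among the 8 was Slc46a1, a proton-coupled folate transporter that also carries haem, with a mean of 5.46 and a log2 difference of 1.64 (limma adjusted p = 0.0258). It was 1 of the 6 well-studied carriers with a lower mean, and the rest of these did not pass. Slc1a3 differed by -0.10, Slc2a9 by -0.05, Slc8a1 by 0.45, Slc12a2 by 0.33 and Slc39a8 by 0.87 (limma adjusted p between 0.108 and 0.939). Of the genes left out by name, the iron exporter Slc40a1 was higher in Ly6C low by 2.24 (adjusted p = 0.0193) and the glucose transporter Slc2a1 was lower (difference -1.18, adjusted p = 0.00503).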
